A study of Mus musculus with 10 samples.

Results

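The 7 genes described here encode chemoattractants and chemoattractant receptors of mouse liver. The ligand genes were *Cxcl1*, *Cxcl9*, *Cxcl10*, *Cxcl12* and *Ccl27a*, and the receptor genes were *C3ar1* and *Fpr1*. They formed a named list that was looked up in the count table by matching Ensembl identifiers to gene symbols of the GENCODE annotation of GRCm38, and all 7 were found among the 12148 genes of the table. Although the list was drawn up as chemokines and chemokine receptors, neither receptor gene encodes a chemokine receptor: the product of *C3ar1* binds the complement fragment C3a, and the product of *Fpr1* binds formylated bacterial peptides. The genes were chosen by earlier results on these same livers, their CPM in both groups. The differences between groups are therefore described for the 7 genes, and no test of them is used as support.

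Whole liver RNA was sequenced from 10 germ-free (GF) wild-type C57BL/6 mice, 1 library per mouse. GF+MEV mice (n = 5) received 80 μg of gut microbiota-derived extracellular vesicles (MEV) in PBS by mouth, 2 times per week for 3 weeks, and GF+PBS mice (n = 5) received PBS alone on the same schedule. MEV were a mixed preparation from cecal content and stool of control mice, so no single bacterium was given, and all recipients lacked a microbiota of their own. The age of the germ-free mice was not given in the sources used here. Libraries held 15746119 to 20523649 gene counts in GF+MEV and 16140770 to 19733387 in GF+PBS livers.

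The tissue label held: 7 hepatocyte markers, among them the albumin gene, summed to 93209.5 to 113939 CPM over all livers, and *Ass1* alone of them was called (higher in GF+MEV livers). Of 10 sinusoidal endothelial markers *Lyve1* was higher and *Clec4g* lower in GF+MEV livers, of 10 stellate cell markers 0 were called, and of 3 measured cholangiocyte markers *Krt19* was higher. Transcripts of 5 skeletal muscle genes summed to 550 to 765 CPM in GF+PBS replicates 3, 4 and 5 and to 209 to 342 CPM in the other 7 livers, and none of the 5 was called. Transcripts of 4 Y-linked genes were present in all 10 livers.

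Chemokines are small secreted proteins that bind G protein-coupled receptors on leukocytes and direct their movement along a concentration gradient. CXCL9, CXCL10 and CXCL11 share the receptor CXCR3 on activated T cells and NK cells and are classical products of interferon-gamma signalling, whereas CXCL1 acts on neutrophils through CXCR2 and is a classical product of NF-κB signalling. CXCL12 is produced constitutively by stromal cells and acts through CXCR4 and ACKR3, and in liver these genes are expressed by hepatocytes, sinusoidal endothelium, stellate cells and Kupffer cells to differing degrees.

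The sequences before the start sites of *Cxcl9*, *Cxcl10* and *Cxcl1* are shown because these genes are textbook targets of interferon and NF-κB signalling, whose other genes are described further down. RefSeq promoters of GRCm38.p6 matched all 7 genes, with 9 promoters in all. Each line gives the 250 bases before the start site, 5′ to 3′ on the strand of the gene. Capitals mark matches to an interferon-stimulated response element (GAAA, then 2 bases of any kind, then GAAA) or to a κB site (GGGA, then 4 bases of any kind, then CC), in either orientation. *Cxcl9* lies on the minus strand (chr5:92328080-92328329), as does *Cxcl10* (chr5:92348890-92349139), and *Cxcl1* lies on the plus strand (chr5:90890995-90891244).
Cxcl9: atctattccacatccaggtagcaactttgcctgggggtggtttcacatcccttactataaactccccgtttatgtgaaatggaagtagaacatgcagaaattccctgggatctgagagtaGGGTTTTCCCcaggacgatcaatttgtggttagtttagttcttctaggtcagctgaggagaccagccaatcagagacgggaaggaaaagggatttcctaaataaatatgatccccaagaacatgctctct
Cxcl10: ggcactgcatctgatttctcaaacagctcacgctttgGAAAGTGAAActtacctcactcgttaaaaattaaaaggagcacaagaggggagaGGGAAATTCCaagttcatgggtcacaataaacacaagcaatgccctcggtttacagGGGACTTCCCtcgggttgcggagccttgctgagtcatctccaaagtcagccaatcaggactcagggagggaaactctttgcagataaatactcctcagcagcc
Cxcl1: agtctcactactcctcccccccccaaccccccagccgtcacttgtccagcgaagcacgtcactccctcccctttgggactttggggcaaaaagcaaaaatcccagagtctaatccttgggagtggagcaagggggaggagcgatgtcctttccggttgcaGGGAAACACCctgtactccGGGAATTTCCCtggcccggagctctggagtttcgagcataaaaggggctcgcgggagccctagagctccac

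In *Cxcl10* the match to the response element, GAAAGTGAAA, spanned bases 213 to 204 before the start, and κB matches stood at bases 159 to 150 and 103 to 94. *Cxcl9* had 1 κB match, at bases 130 to 121 and read on the other strand. *Cxcl1* had 3 κB matches, at bases 90 to 81, 71 to 62 and 70 to 61, of which the last pair overlap on opposite strands. Of the 7 genes, 4 had a κB match, the other being *Ccl27a* at 2 of its 3 start sites, and 1 had the response element. Among all 32851 promoters of the same table and length, 17.6% held a κB match and 2.98% the response element. A STAT site, TTCNNNGAA, was held by 7.02% of promoters and by none of the 9 promoters of these genes. A match describes letters only.

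Expression is given as CPM, a count scaled to the library's size after edgeR's TMM normalization, and, where different genes are compared, as CPM per kb of exon. *Cxcl12* was by far the most abundant of the 7 transcripts per length, at 34.0 CPM per kb in GF+MEV and 36.4 in GF+PBS livers. *Cxcl9* came next, at 3.06 CPM per kb in GF+MEV and 5.33 in GF+PBS livers. *Ccl27a* (2.19 and 2.76 CPM per kb) and *Cxcl1* (1.76 and 2.58) followed, and their ranges overlapped in both groups. *Fpr1* (1.02 and 1.51 CPM per kb), *Cxcl10* (0.652 and 1.70) and *C3ar1* (0.251 and 0.435) were lowest. *Fpr1* lay above *Cxcl10* in GF+MEV livers and below it in GF+PBS livers, with overlapping ranges both times. In GF+MEV livers every neighbouring pair below *Cxcl12* overlapped, while in GF+PBS livers *Cxcl9* stood apart from *Ccl27a*, and *Fpr1* from *C3ar1*.

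All 7 genes had a lower mean in GF+MEV than in GF+PBS livers, with log2 fold changes from -1.36 (*Cxcl10*) to -0.10 (*Cxcl12*) and a median of -0.56, beside -0.0037 over all 12147 genes tested. Of the 7, *Cxcl9* and *Cxcl10* passed an adjusted p of 0.05 in edgeR's quasi-likelihood test, both lower in GF+MEV livers, beside 3.52% of all tested genes lower and 7.64% called in either direction. None of the 7 had GF+MEV and GF+PBS livers without overlap, beside 7.39% of all tested genes (3.45% lower and 3.94% higher in GF+MEV livers). Nothing is read from these counts, since the genes were chosen with this contrast known.

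**Figure D1:**
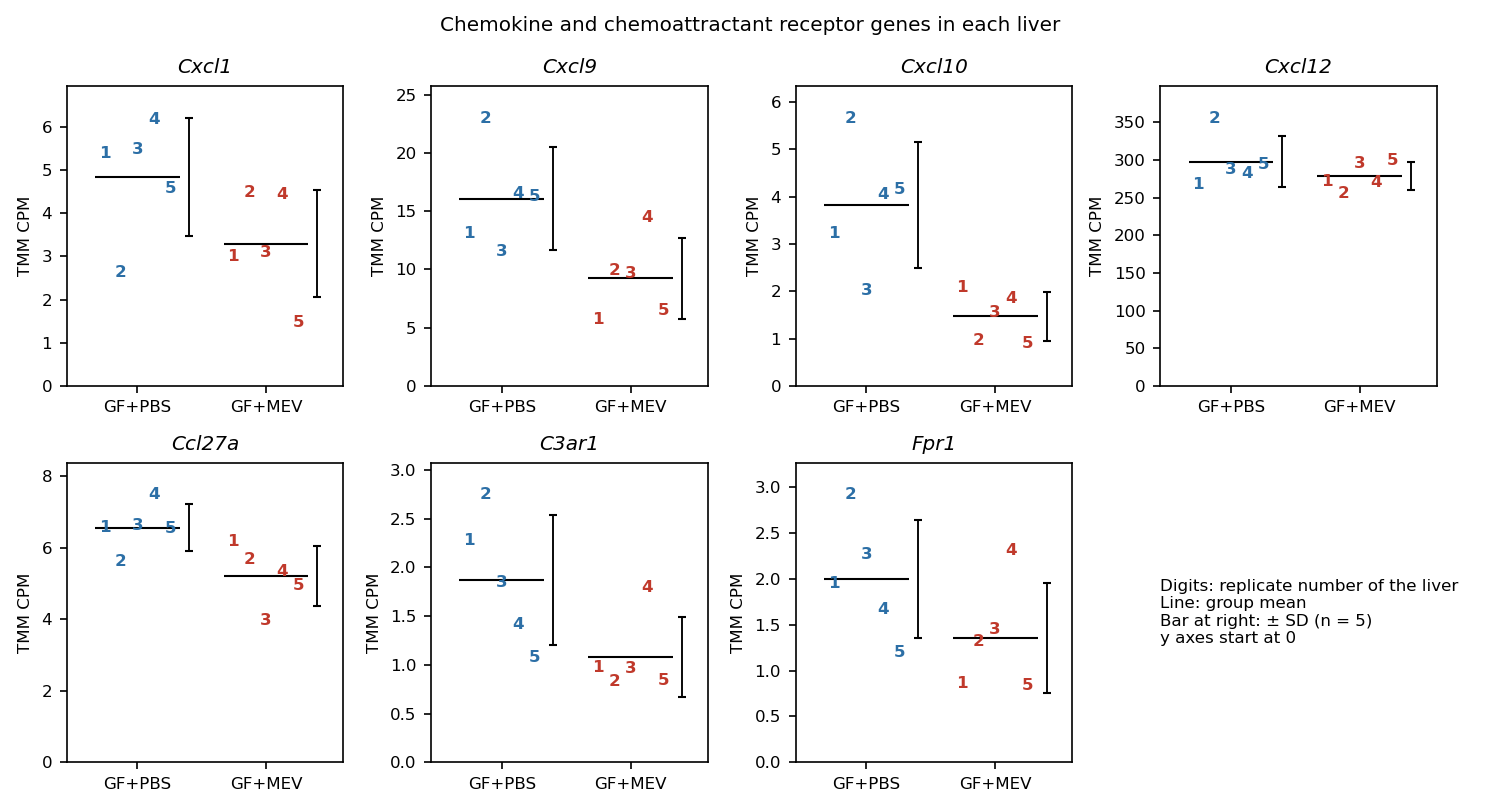
TMM CPM of the 7 genes in each liver, 1 panel per gene, with GF+PBS livers (blue) and GF+MEV livers (red) as digits that give the replicate number, the group mean as a line and ± SD (n = 5) as a bar. As a ratio, the group means are farthest apart for *Cxcl10* (1.47 and 3.82 CPM) and nearest for *Cxcl12* (278 and 298 CPM), and GF+PBS replicate 2 is the highest GF+PBS liver in 5 of the 7 panels.

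*Cxcl10* (ENSMUSG00000034855, chr5:92346638-92348889) encodes a CXCR3 ligand also known as IP-10. Its expression was 2.07, 0.966, 1.54, 1.85 and 0.900 CPM in GF+MEV replicates 1 to 5. In GF+PBS replicates 1 to 5 it was 3.22, 5.66, 2.02, 4.04 and 4.14 CPM. The groups overlapped only through GF+PBS replicate 3, which lay just under GF+MEV replicate 1, and the other 4 GF+PBS livers were above every GF+MEV liver. The means were 1.47 ± 0.52 CPM in GF+MEV and 3.82 ± 1.33 CPM in GF+PBS (SD, n = 5 each), and the log2 fold change was -1.36 (SE 0.33). These values rest on 14 to 101 counts per library, and Poisson counting error alone would give a coefficient of variation of 19.8% in GF+MEV, where 35.7% was measured.

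*Cxcl9* (ENSMUSG00000029417, chr5:92321347-92328079), a CXCR3 ligand gene beside *Cxcl10* on chromosome 5, was expressed at 5.67, 9.94, 9.61, 14.4 and 6.49 CPM in GF+MEV replicates 1 to 5. The GF+PBS livers, in the same order, were at 13.1, 23.0, 11.5, 16.5 and 16.2 CPM. GF+MEV replicate 4 lay within the range of the GF+PBS livers, while the other 4 GF+MEV livers were below every GF+PBS liver. The means were 9.23 ± 3.46 and 16.1 ± 4.39 CPM (SD, n = 5 each), and the log2 fold change was -0.80 (SE 0.29). For both genes the lowest GF+PBS livers were replicates 1 and 3. Over the 500 most variable genes these 2 livers differed by a root mean square of 0.58 on the log2 scale, replicates 4 and 5 by 0.47, and the 8 other GF+PBS pairs by 0.76 to 0.98. With only replicates 1 and 3 as controls the log2 fold change was -0.83 for *Cxcl10* and -0.42 for *Cxcl9*, and with only replicates 2, 4 and 5 these differences were -1.63 and -1.002. Both fits were added after seeing the data, and the direction of these shifts was fixed by the choice of controls.

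*Cxcl1* (ENSMUSG00000029380, chr5:90891241-90893115), a neutrophil chemoattractant also known as KC, was expressed at 2.99, 4.48, 3.09, 4.44 and 1.48 CPM in GF+MEV replicates 1 to 5. In GF+PBS replicates 1 to 5 it was 5.39, 2.63, 5.48, 6.17 and 4.56 CPM. Here GF+PBS replicate 2, the highest GF+PBS liver for *Cxcl9* and *Cxcl10*, was the lowest GF+PBS liver, and the other 4 lay above all GF+MEV livers. The means were 3.30 ± 1.24 and 4.84 ± 1.36 CPM (SD, n = 5 each), and the log2 fold change was -0.56 (SE 0.35). Without GF+PBS replicate 2 it was -0.71.

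*Cxcl12* (ENSMUSG00000061353, chr6:117168535-117181367), which encodes stromal cell-derived factor 1, was expressed at 272, 255, 295, 270 and 299 CPM in GF+MEV replicates 1 to 5. Values of the GF+PBS livers were 268, 355, 288, 282 and 294 CPM in replicates 1 to 5. Only GF+PBS replicate 2 stood above the GF+MEV livers, and the remaining livers of both groups were intermixed. The log2 fold change was -0.10 (SE 0.08), and without GF+PBS replicate 2 it was -0.02. At 3695 to 6342 counts per library, counting error is a small part of this spread.

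*Ccl27a* (ENSMUSG00000073888, chr4:41769467-41774247) encodes a ligand of CCR10 best known from skin. It was expressed at 6.16, 5.66, 3.96, 5.33 and 4.95 CPM in GF+MEV replicates 1 to 5. In GF+PBS replicates 1 to 5 it was 6.55, 5.60, 6.61, 7.48 and 6.55 CPM. GF+PBS replicate 2 was again the lowest GF+PBS liver and the only one within the GF+MEV range. The means were 5.21 ± 0.83 and 6.56 ± 0.66 CPM (SD, n = 5 each), and the log2 fold change was -0.34 (SE 0.12). Of the 100-base windows along its transcripts, 26.5% were identical to transcripts of *Ccl27b*, *Gm13306*, *Gm20878*, *Gm21586* or *Gm21953*, so its count is uncertain.

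*C3ar1* (ENSMUSG00000040552, chr6:122847138-122856161) encodes the receptor for C3a on macrophages and other myeloid cells. It was expressed at 0.976, 0.828, 0.966, 1.80 and 0.835 CPM in GF+MEV replicates 1 to 5. In GF+PBS replicates 1 to 5 it was 2.28, 2.75, 1.84, 1.41 and 1.08 CPM. GF+MEV replicate 4 lay far above the other GF+MEV livers, which were all below the lowest GF+PBS liver. The means were 1.08 ± 0.41 and 1.87 ± 0.66 CPM (SD, n = 5 each), and the log2 fold change was -0.78 (SE 0.29), and without GF+MEV replicate 4 it was -1.04.

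*Fpr1* (ENSMUSG00000045551, chr17:17876471-17883940), the formyl peptide receptor gene of neutrophils and macrophages, was expressed at 0.854, 1.31, 1.45, 2.30 and 0.835 CPM in GF+MEV replicates 1 to 5. GF+PBS livers had 1.94, 2.91, 2.26, 1.67 and 1.20 CPM in replicates 1 to 5. GF+MEV replicate 4 was again the highest of its group and GF+PBS replicate 2 of the other, and only the latter stood above all GF+MEV livers. The log2 fold change was -0.55 (SE 0.32), and without GF+MEV replicate 4 it was -0.83. Both receptor genes rest on few reads, 12 to 49 counts per library for *C3ar1* and 13 to 52 for *Fpr1*.

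Kupffer cells, the resident macrophages of the liver, are a source of both receptors, and in whole tissue fewer cells of a type cannot be told apart from less RNA per cell. The 10 Kupffer cell markers summed to 240 to 451 CPM in GF+MEV and 270 to 393 CPM in GF+PBS livers, and 0 of the 10 passed the edgeR threshold. The medians of the sum were 246 and 350 CPM, 3 of the 5 GF+MEV livers lay below every GF+PBS liver, and 7 of the 10 markers had a negative log2 fold change. *Folr2*, a folate receptor gene of macrophages, was below every GF+PBS liver in all GF+MEV livers (-0.83, edgeR adjusted p = 0.062). GF+MEV replicate 4, highest for *C3ar1* and *Fpr1*, also had the highest sum, at 451 CPM, and 21.2 CPM of the scavenger receptor gene *Marco*, against 1.28 to 2.17 CPM in the other GF+MEV livers. Within GF+PBS, replicate 2 had the highest sum (393 CPM) and replicate 5 the lowest (270 CPM), the same livers as for *C3ar1* and *Fpr1*. Of 7 monocyte markers 3 were measured, and none of them was called. Of 10 neutrophil markers only *Csf3r* was in the table, at 0.964 to 2.25 CPM in GF+MEV and 1.44 to 2.35 CPM in GF+PBS livers, and the other 9 were not analysed here. The part of these cell types in the values of *C3ar1* and *Fpr1* was not tested.

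**Figure D2:**
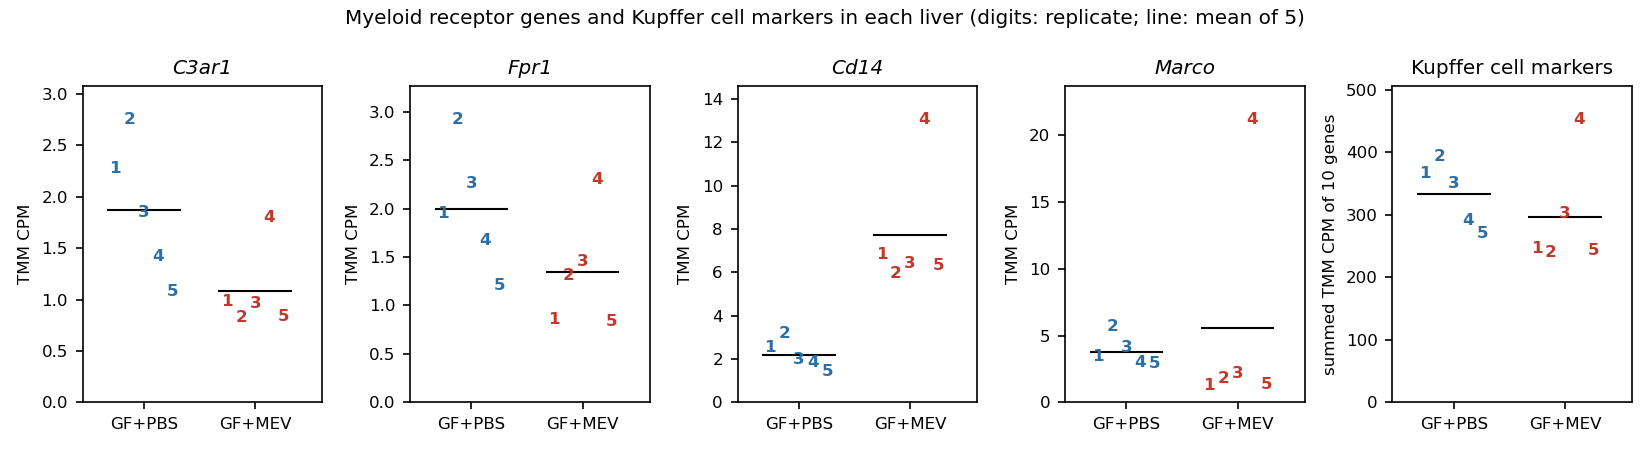
TMM CPM of *C3ar1*, *Fpr1*, *Cd14* and *Marco*, and the summed TMM CPM of 10 Kupffer cell markers, in each liver, with digits for the replicate number and a line at the mean of 5 livers. GF+MEV replicate 4 is the highest GF+MEV liver in every panel, at 451 CPM for the marker sum and 1.80 CPM for *C3ar1*.

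The ligand of C3AR1 derives from complement C3, whose gene *C3* averaged 7201 ± 552 CPM in GF+MEV and 6885 ± 699 CPM in GF+PBS livers (± SD, n = 5 per group), with a difference of 0.06 on the log2 scale (adjusted p = 0.69 in edgeR). *Anxa1*, which encodes a ligand of formyl peptide receptors, differed by 0.44 (SE 0.13, adjusted p = 0.094 in edgeR). Among 22 other chemoattractant receptors and ligands, 12 were tested, 1 was lower in GF+MEV livers and none higher, with a median log2 fold change of 0.03. This share is near the 7.64% called over all tested genes. The gene called was *S1pr1*, the sphingosine-1-phosphate receptor of endothelium and lymphocytes. It fell in GF+MEV livers without overlap, to 28.4 ± 3.26 CPM against 44.6 ± 8.21 CPM in the controls given PBS (mean ± SD, n = 5 per group; log2 fold change -0.65, SE 0.14, edgeR adjusted p = 0.0034). *Hc*, the complement C5 gene, differed by 0.28 (SE 0.10, adjusted p = 0.066 in edgeR), and DESeq2 called it higher in GF+MEV livers (DESeq2 adjusted p = 0.024).

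Of the 36 other chemokine ligand genes listed, 10 were tested, and 1 was called, *Cxcl11*, while none was higher, a share near the 7.64% of all tested genes. Their median log2 fold change was 0.10. *Cxcl11* (ENSMUSG00000060183, chr5:92359544-92365485), the gene of the remaining CXCR3 ligand, lies next to *Cxcl10*, and the 3 genes span 44.1 kb. It was expressed at 1.40, 1.03, 0.772, 0.561 and 0.964 CPM in GF+MEV replicates 1 to 5 and at 2.33, 2.80, 1.79, 2.48 and 2.40 CPM in GF+PBS replicates 1 to 5. Every GF+MEV liver was below every GF+PBS liver (log2 fold change -1.33, SE 0.22, edgeR adjusted p = 0.0020). It passed the threshold in all 21 alternatives tried, with adjusted p from 2.0e-05 to 0.049. Its values rest on few reads, a mean of 29 counts per library. GENCODE annotates *Cxcl11* in GRCm38 as a polymorphic pseudogene, a gene that is intact in some strains or individuals only. Whether these mice make an intact CXCL11 was not tested, so its lower transcript is no evidence of less functional ligand. Of its 3794 exon bases, 1582 overlap the pseudogene *Gm2673* on the other strand. The macrophage chemokine genes of rodents *Ccl9* (log2 fold change -0.02, edgeR adjusted p = 0.93) and *Ccl6* (0.58, edgeR adjusted p = 0.092) did not pass. With DESeq2, *Ccl6* was called higher in GF+MEV livers (DESeq2 adjusted p = 0.047).

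**Figure D3:**
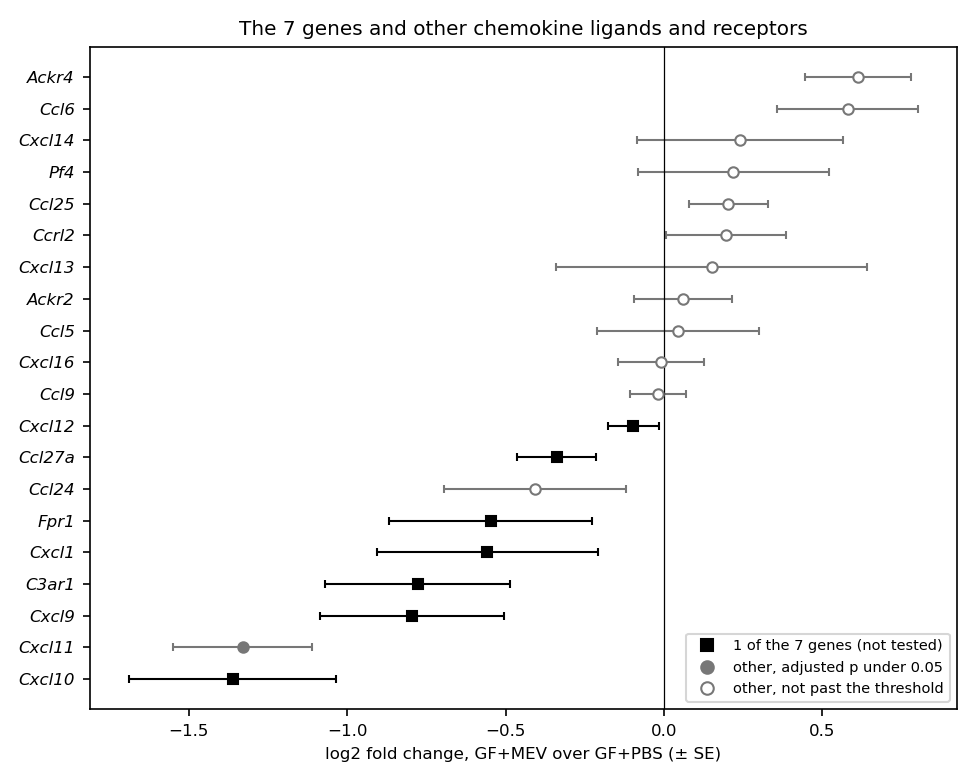
Log2 fold changes (GF+MEV over GF+PBS, ± SE) of the 7 genes (squares) and of other measured chemokine ligands and 3 chemokine receptors (circles, filled where the edgeR adjusted p was under 0.05). *Cxcl10* (-1.36) and *Cxcl11* (-1.33) are lowest and *Ackr4* (0.61) is highest, and *Cxcl11* is filled.

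Among chemokine receptors, *Cxcr2*, *Cxcr3*, *Cxcr4*, *Ackr3* and *Ccr10*, the receptors of the ligands above, were not analysed here. The atypical receptor genes *Ackr2* (log2 fold change 0.06, edgeR adjusted p = 0.90) and *Ackr4* (0.61, edgeR adjusted p = 0.087), whose products scavenge chemokines, and *Ccrl2* (0.20, edgeR adjusted p = 0.67) did not pass. *Ackr4* is named although it falls outside the naming rule.

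In the interferon-gamma pathway, a known inducer of the CXCR3 ligand genes, 5 of the 17 tested genes of 20 listed were lower in GF+MEV livers and none was higher, beside 3.52% of all tested genes lower. The median log2 fold change was -0.45, and 14 of the 17 values were negative. This list was chosen with earlier results of these data known, so its count is not read as enrichment. *Irf1*, a transcription factor gene induced by interferon, was 15.1 to 17.5 CPM in GF+MEV and 33.4 to 41.1 CPM in GF+PBS livers, a wide gap between the groups (log2 fold change -1.21, SE 0.06, edgeR adjusted p = 9.3e-08). *Cd274*, the PD-L1 gene, fell without overlap (-0.93, SE 0.25, edgeR adjusted p = 0.021). *Ciita*, the master regulator of MHC class II genes (-1.01, SE 0.31, edgeR adjusted p = 0.039), and the GTPase genes *Igtp* (-0.97, SE 0.34, edgeR adjusted p = 0.032) and *Irgm1* (-0.45, SE 0.16, edgeR adjusted p = 0.046) fell with overlap. The receptor-proximal kinase gene *Jak1* (0.09, edgeR adjusted p = 0.47) and the GTPase gene *Iigp1* (-0.22, edgeR adjusted p = 0.34) did not pass, and *Ifng* itself was not analysed here.

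The call of *Irf1* was kept in all 21 alternatives, and the other calls depended on single livers. The count of 5 was 1 without GF+MEV replicate 1 or GF+PBS replicate 4, 2 without GF+MEV replicate 5 or GF+PBS replicate 2 or 5, and 3 without GF+MEV replicate 3. With only GF+PBS replicates 1 and 3 as controls 1 gene was lower and 1 was higher in GF+MEV livers, and with only replicates 2, 4 and 5 there were 8, all lower. Against replicates 1 and 3 alone the log2 fold changes of *Cd274* (-0.52), *Ciita* (-0.47), *Igtp* (-0.19) and *Irgm1* (-0.20) did not pass, with edgeR adjusted p of 0.33 to 0.66. These were the lowest GF+PBS livers for each of these genes, so the smaller differences were fixed by the choice of controls. In GF+PBS replicates 1 and 3, *Cd274* was 2.55 and 2.50 CPM, against 3.64 to 4.31 CPM in replicates 2, 4 and 5, the same division as for *Cxcl9*. Of 11 T and NK cell markers only *Il2rb* was measured (log2 fold change -0.42, edgeR adjusted p = 0.22), at 2.12 to 4.04 CPM in GF+MEV and 3.21 to 4.88 CPM in GF+PBS livers. The B cell markers *Cd79a* (-0.87, edgeR adjusted p = 0.0071) and *Cd79b* (-0.76, edgeR adjusted p = 0.032) fell, 2 of 5 listed, and the 5 summed to 4.28 to 6.13 CPM in GF+MEV and 7.81 to 9.20 CPM in GF+PBS livers. Of 6 dendritic cell markers 2 were measured, of which *H2-Ab1* fell (-0.62, edgeR adjusted p = 0.016) and *Clec9a* did not pass (0.07, edgeR adjusted p = 0.91). The part of these cells in the CXCR3 ligand values was not tested.

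**Figure D4:**
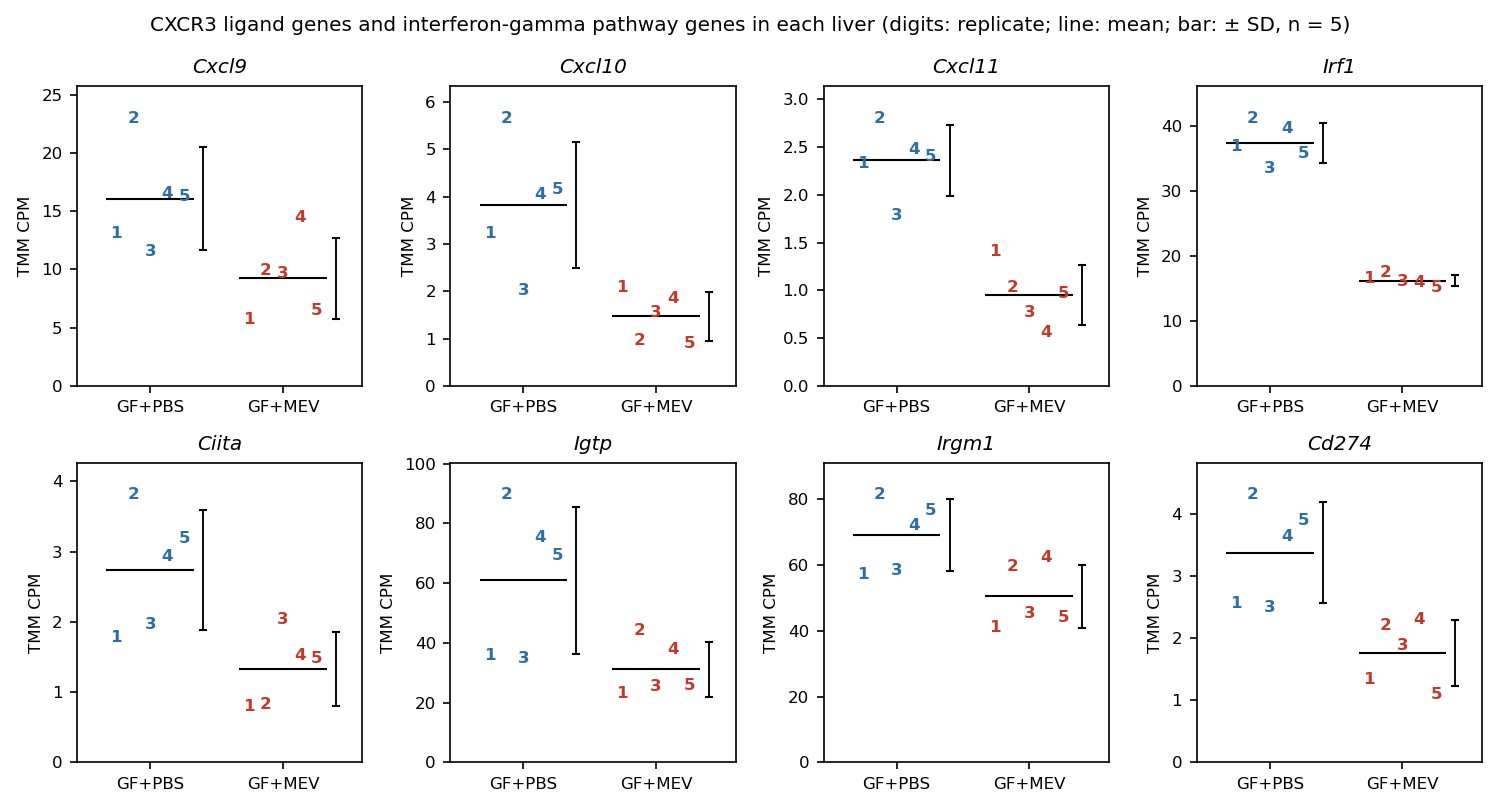
TMM CPM of the CXCR3 ligand genes and of 5 interferon-gamma pathway genes in each liver, with digits for the replicate number, a line at the group mean and a bar of ± SD (n = 5). GF+PBS replicates 1 and 3 are the lowest GF+PBS livers for *Cxcl9*, *Cxcl10*, *Ciita*, *Igtp*, *Irgm1* and *Cd274*, and the groups do not overlap for *Cxcl11*, *Irf1* (16.2 and 37.3 CPM on average) and *Cd274*.

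The NF-κB, IL-1 and TNF pathway, a known inducer of *Cxcl1*, had 7 of 27 tested genes higher in GF+MEV livers and none lower, beside 4.12% of all tested genes higher. Its median log2 fold change was 0.08, and 12 of the 27 values were negative. The lowest was *Il1a*, which just missed the threshold (-0.86, edgeR adjusted p = 0.051). This list too was chosen with earlier results of these data known, so its count is not read as enrichment. The receptor genes *Tnfrsf1b* (log2 fold change 1.77, edgeR adjusted p = 4.5e-10), *Il1r1* (1.53, edgeR adjusted p = 7.9e-06) and *Cd14* (1.81, edgeR adjusted p = 0.00036) rose. The genes of feedback inhibitors *Nfkbia* (0.92, edgeR adjusted p = 3.5e-07) and *Zfp36* (1.13, edgeR adjusted p = 4.4e-06), the latter encoding a protein that destabilizes cytokine mRNAs, also rose, as did the subunit gene *Rel* (0.70, edgeR adjusted p = 0.020). Without GF+MEV replicate 4 or GF+PBS replicate 3, *Rel* had an adjusted p of 0.0517 or 0.0503. *Il1rap*, the co-receptor gene of *Il1r1*, differed by -0.05 (adjusted p = 0.75 in edgeR). *Cxcl1*, with 3 partly overlapping κB matches in the promoter shown above, had a log2 fold change of -0.56. Any link between this pathway and *Cxcl1* in these livers was not tested.

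Downstream of the receptors, 1 of 19 tested signalling genes was called, no larger a share than the 7.64% over all tested genes. *Rgs16*, which encodes a GTPase-activating protein that ends G protein signalling, averaged 313 ± 94.0 CPM in GF+MEV against 115 ± 60.1 CPM in control livers (mean ± SD, n = 5 per group) and rose without overlap (log2 fold change 1.45, SE 0.45, edgeR adjusted p = 0.014). The GF+PBS livers divided into replicates 1 and 3 (51.2 and 47.4 CPM) and the other 3 (149 to 167 CPM). Its log2 fold change was 2.66 with only replicates 1 and 3 as controls and 0.98 with only replicates 2, 4 and 5, and against replicates 1 and 2 alone it did not pass (1.53, edgeR adjusted p = 0.069). *Rac1*, a GTPase gene of cell migration, differed by 0.06 on the log2 scale (adjusted p = 0.61 in edgeR). Among 7 tested genes of proteases that cleave chemokines, *Furin* was higher by 0.23 on the log2 scale (edgeR adjusted p = 0.024), a call that was lost without GF+MEV replicate 3 or GF+PBS replicate 1 or 3, at adjusted p from 0.052 to 0.067. *Dpp4*, whose product removes the N-terminal residues of CXCL9 to CXCL12, differed by 0.01 on that scale (adjusted p = 0.95 in edgeR).

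The genes whose pattern over the 10 livers was closest to each of the 7 were found among 11834 genes averaging 1 CPM or more, by the root mean square difference of log2 CPM after centring each gene. Nearest to *Cxcl9* were *Cd274* (0.18) and *H2-Ab1* (0.21), where *Cxcl9* itself varied by 0.58 around its mean. For *Cxcl10* they were *Gm12247* (0.39) and *Il1a* (0.40), and for *Cxcl1* *Rps4l* (0.27) and *Zfp90* (0.27). *Cxcl12* was closest to *Slc22a23* (0.058) and *AU040320* (0.058), and *Ccl27a* to *Nmi* (0.10) and *Hexim1* (0.11). The nearest patterns to *C3ar1* were those of *Pilra* (0.19) and *Slc11a1* (0.24), and to *Fpr1* those of *Myo1f* (0.22) and *Tbxas1* (0.23). All these points share 10 libraries and the treatment groups, and the smallest distances go with genes that vary least, so they describe likeness in these livers and no more.

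Some counts may hold reads of neighbouring genes, because the strand setting of the counting was not given in the sources used here. Exons of *Cxcl10* overlap 133 of 2252 bases with *Art3* on the other strand, and *Art3* itself was at 2.51 ± 0.61 CPM in GF+MEV and 2.90 ± 0.42 CPM in GF+PBS livers. *Ccl27a* shares 8 of 2377 exon bases with *Il11ra1* on the other strand. No exon of *Cxcl1*, *Cxcl9*, *Cxcl12*, *C3ar1* or *Fpr1* overlaps another annotated gene. Among the other genes named, exons of *Irf1*, *Cd274*, *Ciita*, *Zfp36*, *Rgs16*, *Rac1*, *Furin*, *Dpp4*, *Hc*, *Jak1*, *Ackr4*, *Il1a* and *Il1rap* overlap a gene on the other strand, and those of *Igtp* a gene on the same strand.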

How the data were processed

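Liver RNA of 10 mice was sequenced on an Illumina platform. For each gene the authors deposited raw, unnormalized counts, made by two-pass STAR (2.7.3a) alignment to GRCm38 and HTSeq, after removing genes with fewer than 20 counts over their samples. Base calls came from bcl2fastq 2.17 per the submitters' processing notes. Samples were grouped by their labels and columns by library name, and 5 further columns that match no described sample were not used.

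Of 12148 identifiers, 12143 had a GENCODE symbol. The 12147 genes with at least 20 counts over the 10 livers were tested with edgeR 4.0.16 (R 4.3.3), with TMM normalization, quasi-likelihood on treatment group alone, and Benjamini-Hochberg adjustment over all tested genes at a threshold of 0.05. The study used DESeq2, which served here as an alternative. SE came from log2 CPM (prior count 2). The labels do not say more of the mice than their number, so p-values measure the spread between these livers. No libraries of a group agreed within sampling noise. On simulated data with 200 changed genes among 12148, edgeR recovered 186 and called 8 others, DESeq2 (1.42.0) recovered 185 and called 22 others, and limma-voom (limma 3.58.1) recovered 185 and called 9 others. With no gene changed, they made 2, 4 and 2 calls. The changed genes averaged at least 20 expected counts and changed 2-fold, so the recovery does not describe smaller changes or lower counts.

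The 7 genes and all gene lists were chosen with earlier results of these data known. Named were all 7, the called genes of each list up to 6 by smallest p, the 2 listed genes with the highest mean CPM, the 2 genes with the most similar pattern to each of the 7, and receptors or ligands of the 7. Marker lists covered 12 groups. Motifs were searched on both strands of RefSeq promoters (GRCm38.p6). Alternatives were DESeq2, limma-voom, other normalizations and filters, a replicate block, each liver left out, and alike GF+PBS livers summed. Fits against GF+PBS replicates 1 and 3, 2, 4 and 5, or 1 and 2 alone were added after seeing the data. Some listed genes are not reported here by name, though the counts over all tested genes include them.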

Additional observations from a re-analysis of the deposited data

Results flagged for a closer look

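Within each group of 5 livers, the gap between an extreme liver and its neighbour was set against the range of the group. This was done for 72 groups, of the 7 genes and of genes taken from the pathway and family lists, and 4 exceeded the critical ratio of 0.71. Cell type markers such as *Marco*, and genes named for a similar pattern such as *Il1a*, were not examined in this way. Chance flags about 1 in 20 groups. *C3ar1* was 1.80 CPM in GF+MEV replicate 4, where its group otherwise spanned 0.828 to 0.976 CPM. *Cd14* was 13.02 CPM in the same liver, against 5.93 to 6.83 CPM. In GF+PBS replicate 2, *Zfp36* was 77.6 CPM, while its group otherwise spanned 104.8 to 110.8 CPM. *Furin* was 429.5 CPM in GF+MEV replicate 3, against 373.7 to 386.7 CPM in the others.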

How the results depend on the processing

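Each of the 7 genes kept its negative sign in all 21 alternatives. Nothing is read from this or from their calls in this section, since the genes were chosen with this contrast known. *Cxcl10* ranged from -1.63 to -0.83 on the log2 scale and passed the threshold in 20 of 21, *Cxcl9* from -1.02 to -0.42 in 10 of 21, and *C3ar1* from -1.20 to -0.60, in 1 of 21 (without GF+MEV replicate 4). Over all genes, 928 calls became 561 with alike GF+PBS livers summed. They became 321 against GF+PBS replicates 1 and 2 alone, 992 against replicates 1 and 3 alone, and 768 against replicates 2, 4 and 5 alone. GF+PBS replicates 1 and 2 were lowest in skeletal muscle transcripts, at 209 and 255 CPM summed over 5 markers. The other 3 had 550 to 765 CPM, with replicate 3 the highest, and GF+MEV livers had 248 to 342 CPM. All these fits had fewer control libraries, and the part of muscle transcripts in the calls was not tested. Upper-quartile normalization moved the share of higher calls from 53.9% to 41.2%, with the median of all genes at -0.05, and left all 7 genes negative.

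Of the 7 genes, the 2 calls became 1 with DESeq2, 1 with livers summed, 0 against replicates 1 and 3 alone, 1 against replicates 1 and 2 alone, and 1 to 3 with 1 liver left out. Other ligands, 1 call, became 2 with DESeq2 (1 higher and 1 lower) and 1 to 2 with a liver left out. Other chemoattractant genes, 1 call, became 2 with DESeq2 (1 higher and 1 lower) and 1 to 2 with a liver left out. Interferon-gamma pathway genes, 5 calls, became 2 with livers summed, 2 against replicates 1 and 3 (1 higher and 1 lower), 7 with DESeq2, 8 against replicates 2, 4 and 5 and 1 against replicates 1 and 2 alone, and 1 to 7 with a liver left out. NF-κB pathway genes, 7 calls, all higher, became 5 to 8 higher and 0 to 1 lower with a liver left out, 8 higher and 1 lower with DESeq2, and 5 higher against replicates 2, 4 and 5 or 1 and 2 alone. They became 7 higher and 1 lower with RLE or upper-quartile normalization, or with at least 10 counts in every library. Receptor signalling genes, 1 call, became 2 with DESeq2, 2 with upper-quartile normalization, 0 against replicates 1 and 2 alone, and 1 to 4 with a liver left out. Proteases, 1 call, became 0 with upper-quartile normalization, the replicate block, livers summed, and against replicates 2, 4 and 5 or 1 and 2 alone, and 0 to 1 with a liver left out. The cause of these changes was not tested. DESeq2 called 1201 genes and limma-voom 946 over all.

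The labels give both groups replicate numbers 1 to 5. Same-numbered livers deviated from their group means with correlations of 0.17, -0.08, -0.05, -0.19 and 0.06, and 2 of the 5 GF+MEV livers correlated best with their own number. These values show no clear pairing by number, and 5 correlations are too few to decide whether there was one. With the replicate block, 792 genes were called, *Cxcl9* and *Cxcl10* among them.

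Depth limits *C3ar1*, *Fpr1* and *Cxcl10*, with as few as 12, 13 and 14 counts in a library. It also limits *Cxcl11*, which averaged 29 counts per library, beside 26 for *C3ar1* and 29.5 for *Fpr1*.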
